A study of Rattus norvegicus with 10 samples.

Results

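The nuclear-encoded genes of the mitochondrial respiratory chain were examined in testes of Zucker rats, a strain in which homozygous carriers of the fa allele of the leptin receptor become obese. Members were the genes whose symbol in the probe annotation begins with Nduf, Uqcr, Atp5, Sdh followed by a to d, or Cox4 to Cox8, together with the cytochrome c genes Cycs and Cyct. This rule found 104 genes among the 18166 named genes measured, and each gene was read from the brightest of its probe sets, by the mean of the 10 arrays. These were 32 subunits of complex I, 4 of complex II, 7 of complex III, 18 of complex IV, 14 of complex V (the ATP synthase) and the somatic cytochrome c gene Cycs. The symbol rule also took in 11 assembly factors (Ndufaf and Sdhaf genes). A further 17 loci were classed, by the spelling of their symbols alone, as pseudogenes or further copies of such genes. Of these members, 95 had a mean level at or above the 25th percentile of all genes.

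All testes were labelled with the Zucker (fa/fa) model and an age of 14 weeks, at which the rats were sexually mature, and each was measured on an Affymetrix rat array (10 arrays). The obese rats gave 4 under-developed and 4 normally developed testes, and the lean rats 2 normally developed testes. Since the lean animals bear the fa/fa model in their labels too, what distinguishes them genetically is not settled. Replicates are labelled as biological, without a statement that each testis is from its own rat, and p-values reflect the spread between arrays alone.

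The respiratory chain passes electrons from NADH (complex I) and succinate (complex II) through complex III and cytochrome c to oxygen at complex IV, and complex V uses the resulting proton gradient to make ATP. Several small complex IV subunits exist as tissue forms encoded by separate genes: Cox6b2, Cox7b2 and Cox8c are forms known from the testis, with Cox6b1, Cox7b and Cox8a as their widely expressed counterparts. Cyct encodes a testis form of cytochrome c that is made in germ cells during spermatogenesis, in place of or beside the somatic form from Cycs. The only probe set of Cyct also carried the symbol Pde11a, so Cyct was not analysed here, and the contrast of testis with somatic forms rests on 3 pairs of complex IV subunits.

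Because the testis forms moved together (below), the 250 bases before the start of their genes are shown first, beside those of Cox6b1, Cox7b, Cox8a and Cycs, which moved the other way. They are RefSeq sequences of assembly GRCr8, written 5′ to 3′ on the strand of the gene. Capitals mark matches, on either strand, to the binding motifs NRF-1 (GCGCNTGCG), CRE (TGACGTCA, which contains the shorter CRE core TGACG) and ETS (CCGGAAG).
Cox6b2, chr1:78122621-78122870, plus strand: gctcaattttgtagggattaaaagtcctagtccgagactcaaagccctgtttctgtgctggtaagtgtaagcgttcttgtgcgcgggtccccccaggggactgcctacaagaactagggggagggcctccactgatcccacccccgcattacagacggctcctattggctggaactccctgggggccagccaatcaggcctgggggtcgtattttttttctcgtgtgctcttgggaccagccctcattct
Cox7b2, chr14:37046831-37047080, plus strand: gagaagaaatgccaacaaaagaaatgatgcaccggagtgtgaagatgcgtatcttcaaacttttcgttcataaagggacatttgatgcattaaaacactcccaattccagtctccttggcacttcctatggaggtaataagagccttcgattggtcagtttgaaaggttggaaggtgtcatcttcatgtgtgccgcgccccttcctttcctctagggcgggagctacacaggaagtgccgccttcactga
Cox8c, chr6:127793129-127793378, plus strand: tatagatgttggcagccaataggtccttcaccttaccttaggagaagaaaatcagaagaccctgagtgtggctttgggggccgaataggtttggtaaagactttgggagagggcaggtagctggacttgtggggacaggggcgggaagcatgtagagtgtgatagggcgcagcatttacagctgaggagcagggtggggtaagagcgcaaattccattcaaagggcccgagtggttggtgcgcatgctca
Cox6b1, chr1:95009853-95010102, minus strand: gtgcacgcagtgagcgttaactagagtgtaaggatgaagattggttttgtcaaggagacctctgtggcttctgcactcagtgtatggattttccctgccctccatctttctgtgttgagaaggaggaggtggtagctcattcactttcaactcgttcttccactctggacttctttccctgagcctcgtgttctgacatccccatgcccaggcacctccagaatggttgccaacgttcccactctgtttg
Cox7b, chrX:75148786-75149035, plus strand: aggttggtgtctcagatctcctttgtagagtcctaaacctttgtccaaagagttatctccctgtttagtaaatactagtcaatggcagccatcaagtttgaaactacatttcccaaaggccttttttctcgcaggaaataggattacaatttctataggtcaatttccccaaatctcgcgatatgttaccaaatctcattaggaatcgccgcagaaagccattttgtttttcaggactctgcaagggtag
Cox8a, chr1:213833624-213833873, minus strand: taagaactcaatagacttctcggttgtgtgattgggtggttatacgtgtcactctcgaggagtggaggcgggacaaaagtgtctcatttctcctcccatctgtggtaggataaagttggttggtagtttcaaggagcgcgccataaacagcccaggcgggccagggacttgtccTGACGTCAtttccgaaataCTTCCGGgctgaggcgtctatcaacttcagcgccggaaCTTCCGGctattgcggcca
Cycs, chr4:80984768-80985017, minus strand: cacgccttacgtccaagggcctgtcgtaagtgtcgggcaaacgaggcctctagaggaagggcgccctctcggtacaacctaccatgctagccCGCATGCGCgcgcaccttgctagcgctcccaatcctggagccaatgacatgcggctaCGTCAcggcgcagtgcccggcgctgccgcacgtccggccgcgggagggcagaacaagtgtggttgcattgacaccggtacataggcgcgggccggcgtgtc
The windows of the 3 testis forms held none of these letters, and neither did those of Cox6b1 and Cox7b. The Cox8a window held 1 CRE match and 2 ETS matches, and the Cycs window held 1 NRF-1 match and 1 CRE core match. A window was found for 85 members. Their shares are set beside those of all RefSeq windows, which were not limited to the genes measured here. The NRF-1 letters stood in 18 of these (21.2%), against 5.03% of all 33469 windows, and the ETS letters in 23 (27.1%), against 7.27%. For the CRE the numbers were 2 members (2.35%) against 1.59%, and for the CRE core 30 members (35.3%) against 18.2%. A match is a description of the letters, not a bound site.

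Within the under-developed group the arrays were not alike. Across the 104 members, the mean Pearson r with the 6 normal arrays was 0.877 for replicate 1, 0.958 for replicate 2, 0.751 for replicate 3 and 0.994 for replicate 4, and across all genes it was 0.856, 0.946, 0.731 and 0.995 (genes are not independent replicates). Results that rest on the group are therefore given with and without replicate 4, which was set apart after its values had been seen. Leaving out the under-developed array most like the normal ones favours larger differences. Calls and p-values of that fit describe replicates 1 to 3 and do not test the groups as labelled.

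Markers of other cells moved with the same arrays, and the following values belong beside every difference given below. The mean of 10 spermatid markers lay between 7.60 and 11.8 log2 in under-developed testes, against 11.8 to 11.9 in normal obese and 11.8 to 11.9 in lean testes. Relative to the normal obese mean, it was changed in under-developed replicates 1 to 4 by −2.74, −0.82, −4.23 and −0.07 log2, and the mean of 10 spermatocyte markers by −2.39, −0.68, −3.80 and −0.02. Without replicate 4, limma called 9 of the 10 spermatid and 10 of the 10 spermatocyte markers lower. Of all genes it called 26.4% lower and 29.6% higher. The mean of 9 measured Sertoli cell markers differed by 1.59, 1.20, 1.69 and 0.04 (7 called higher and 1 lower), that of 6 Leydig cell markers by 1.40, 0.77, 1.47 and −0.32 (4 higher), that of 7 matrix and myoid markers by 2.01, 1.36, 2.26 and −0.14 (7 higher), and that of 7 macrophage markers by 2.69, 1.57, 2.63 and −0.06 (7 higher). The mean of 4 striated muscle markers differed by −0.08, −0.18, 0.12 and 0.10, with 0 called, and the 1 measured red blood cell marker by 1.61, 2.01, 0.72 and −0.09. In whole testes, fewer cells of a type and less RNA per cell cannot be told apart, and the part that cell make-up has in the differences below was not tested.

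**Figure D1:**
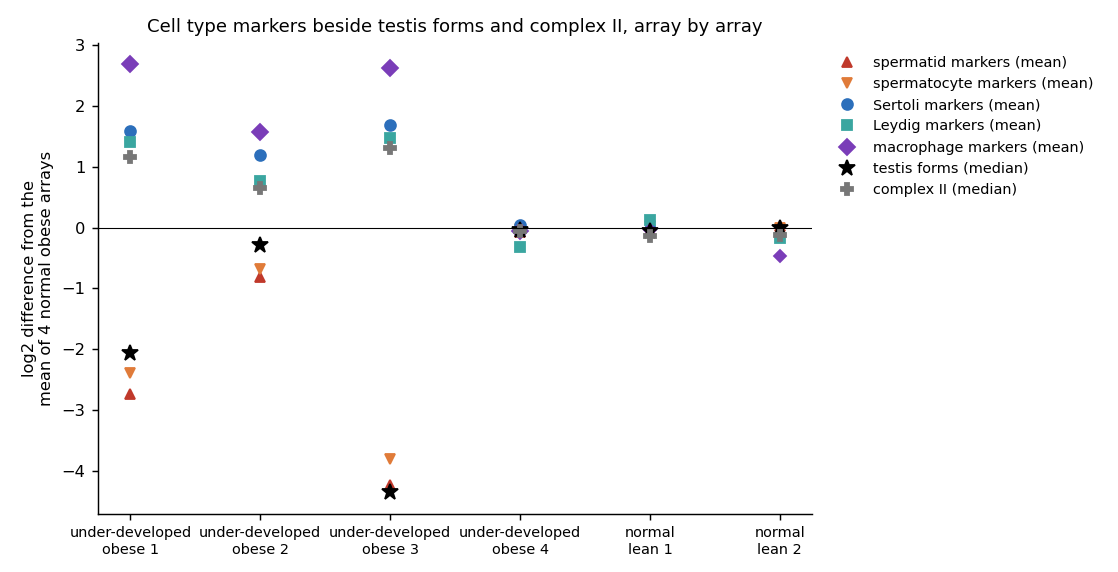
Mean log2 difference of 5 cell type marker lists, and median log2 difference of the 3 testis forms and of the 4 complex II genes, from the normal obese mean (4 arrays; vertical axis), for each under-developed obese and each lean array (horizontal axis). In under-developed replicates 1 to 3 the testis forms lie below 0, near −2.06, −0.29 and −4.35, as the germ cell markers do. In the same replicates complex II lies above 0, as the somatic cell markers do. Replicate 4 lies near 0 throughout.

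Testis forms of complex IV were far lower in under-developed replicates 1 and 3, slightly lower in replicate 2 and near the normal values in replicate 4, while their somatic counterparts were higher in replicates 1 and 3. Cox6b2 was at 9.14, 10.86, 7.22 and 11.16 log2 in under-developed replicates 1 to 4, against 11.20, 11.11, 11.18 and 11.32 in normal obese and 11.502 and 11.20 in lean testes. For Cox7b2 the levels were 11.10, 12.56, 8.04 and 12.67 in under-developed testes, against 12.56, 12.66, 12.75 and 12.70 in normal obese and 12.61 and 12.62 in lean testes. Cox8c stood at 9.78, 11.64, 7.58 and 11.83 in under-developed testes, against 11.93, 11.87, 11.91 and 12.02 in normal obese and 11.82 and 12.01 in lean testes. For Cox8c the values of all under-developed arrays were below those of all normal obese arrays. For the other testis forms those of replicate 4 lay within the normal obese range. Replicate 2 for Cox7b2 lay below that range by less than the rounding. In the fit without replicate 4, limma called Cox6b2 (4.37-fold lower, log2 difference −2.13 ± 0.68 SE, adjusted p = 0.0248) and Cox8c (4.80-fold lower, −2.26 ± 0.75, adjusted p = 0.0297). It did not call Cox7b2 (−2.10 ± 0.85, adjusted p = 0.0631). With all arrays none of them passed (limma adjusted p = 0.12, 0.124 and 0.186 for Cox6b2, Cox8c and Cox7b2).

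The somatic counterparts went the other way. Cox7b, encoded on the X chromosome, was at 10.41, 9.83, 10.64 and 6.99 in under-developed replicates 1 to 4, against 7.45, 7.54, 7.37 and 7.27 in normal obese and 7.17 and 7.23 in lean testes. For Cox8a the levels were 9.99, 9.40, 10.38 and 8.02 in under-developed testes, against 8.28, 8.24, 7.96 and 8.08 in normal obese and 8.08 and 7.86 in lean testes. Both were above all normal arrays in under-developed replicates 1 to 3, and replicate 4 was below or among them. Cox6b1, the smallest change of the counterparts, was at 9.47, 8.65, 9.68 and 8.67 in under-developed testes, against 8.71, 8.36, 8.50 and 8.89 in normal obese and 9.13 and 8.83 in lean testes, and only replicates 1 and 3 lay above the normal arrays. Without replicate 4, limma called Cox7b 7.39-fold higher (2.89 ± 0.18 log2, adjusted p = 5.04e-05), Cox8a 3.43-fold higher (1.78 ± 0.21, adjusted p = 0.000227) and Cox6b1 1.57-fold higher (0.65 ± 0.24, adjusted p = 0.0473), the last of which turned to −0.09 when arrays were centred on ribosomal protein genes. Cycs, the somatic cytochrome c that also carries the apoptotic signal once released, was at 10.33, 9.58, 9.95 and 8.88 in under-developed testes, against 8.69, 9.05, 9.10 and 8.48 in normal obese and 8.79 and 8.75 in lean testes. It was called 2.18-fold higher without replicate 4 (limma, 1.12 ± 0.21 log2, adjusted p = 0.0019). With all arrays limma's adjusted p was 0.0703 for Cox7b, 0.0702 for Cox8a, 0.146 for Cox6b1 and 0.0703 for Cycs.

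**Figure D2:**
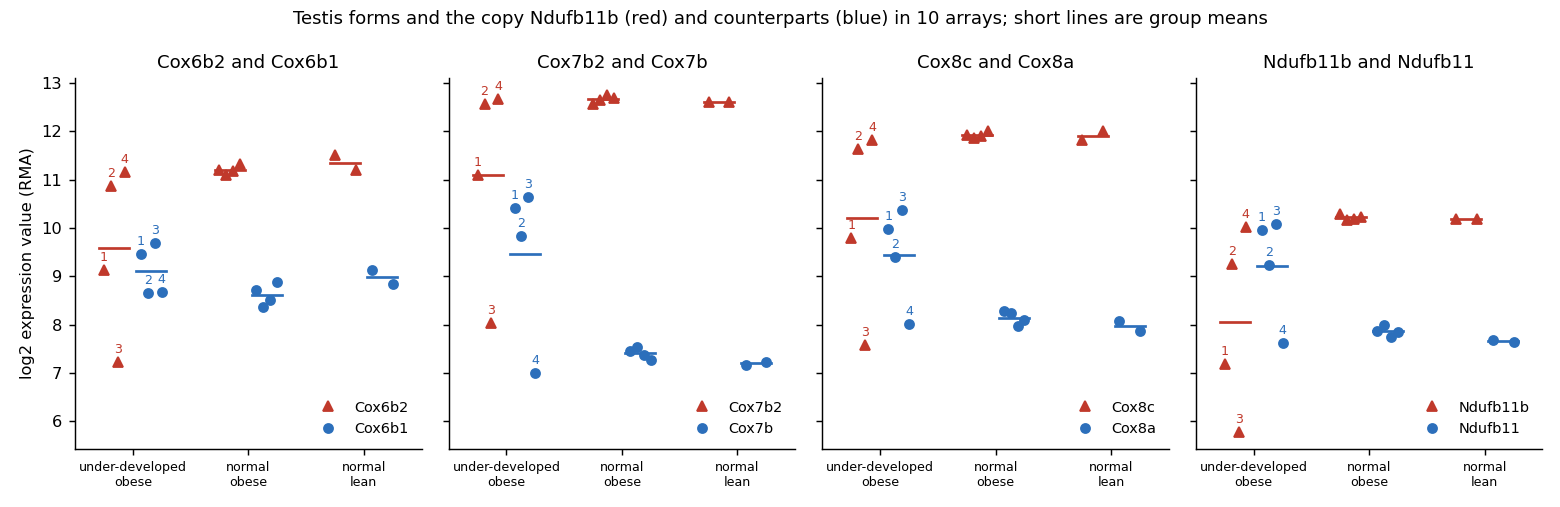
Log2 expression values (vertical axis) of 3 testis forms and the copy Ndufb11b (red triangles) and of their counterparts (blue circles) in the under-developed obese (4 arrays, numbered by replicate), normal obese (4 arrays) and normal lean (2 arrays) groups; short lines are group means. Red points are lower and blue points higher in under-developed replicates 1 and 3, and replicate 4 sits with the normal arrays; heights are not comparable between genes, which have different probes.

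The log2 ratio of each testis form to its counterpart, set to a mean of 0 in the normal obese arrays, was compared array by array. For Cox6b2 to Cox6b1 it was −2.92, −0.38, −5.05 and −0.10 in under-developed replicates 1 to 4, and the normal obese arrays lay between −0.16 and 0.16 and the lean ones at −0.22. For Cox7b2 to Cox7b the values were −4.58, −2.53, −7.86 and 0.42, against −0.14 to 0.17 in normal obese and 0.12 and 0.19 in lean testes. That of Cox8c to Cox8a was −3.99, −1.55, −6.59 and 0.02, against −0.16 to 0.15 in normal obese and −0.05 and 0.36 in lean testes. The ratios of replicates 1, 2 and 3 were below every normal array for all 3 pairs, and those of replicate 4 were not, at −0.10 for the Cox6b pair within the normal obese range and at 0.42 for the Cox7b pair above it. The mean difference between under-developed and normal obese testes was −2.11 for Cox6b2 to Cox6b1 (SD 2.33 and 0.148 over 4 arrays each; two-sided exact permutation p = 0.0571, adjusted p = 0.1286 over the 3 pairs). It was −3.64 for Cox7b2 to Cox7b (SD 3.48 and 0.165; exact permutation p = 0.1429, adjusted p = 0.1429) and −3.03 for Cox8c to Cox8a (SD 2.89 and 0.173; exact permutation p = 0.0857, adjusted p = 0.1286), where the smallest p that 4 against 4 arrays allow is 0.0286. The ratios were thus not shown to differ between the groups as labelled. Without under-developed replicate 3 the differences were −1.13, −2.23 and −1.84 in the same order of pairs, and without replicate 4 they were −2.78, −4.99 and −4.04, each with the smallest exact p that 3 against 4 arrays allow, 0.0571.

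Over the 10 arrays the testis forms had closely similar patterns. Pearson's r, given as a description because the points share arrays that stand apart, was 0.9946 between Cox8c and Cox6b2, 0.988 between Cox8c and Cox7b2, and 0.9796 between Cox6b2 and Cox7b2. The ranking over all genes left out symbols that begin with LOC, RGD, AABR, Olr or Mir. Of the remaining genes, the one most like Cox8c was another member, the complex I assembly factor Ndufaf3 (r = 0.9991). Tsacc, Asrgl1, Rpgrip1 and Hspb9 followed. In the same ranking the genes most like Cox6b2 were Ypel1, Sycp2 (a part of the synaptonemal complex of meiosis), Pbp2, C7h12orf54 and C8h11orf71. For Cox7b2 they were Bbof1, Ccdc83, Erhl1, Lyar and Ldhc, the testis form of lactate dehydrogenase (r = 0.9985 to 0.9991). Among the members, Ndufaf3, Ndufa12, Ndufb11b and Uqcrfs1 completed the 5 nearest to each testis form (r = 0.9623 to 0.9991). The members with the most opposite patterns to all testis forms included Atp5mc1l1 (r = −0.9813 to −0.9494), Ndufaf6 (−0.9703 to −0.945), Sdha (−0.9232 to −0.8556) and Uqcrb (−0.9199 to −0.8942).

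The question posed by the series, under-developed against normally developed testes of obese rats, was then read over all 104 members. With all arrays, limma called 0 members at an adjusted p under 0.05, as it called 0% of all genes, with a smallest value of 0.0702. Before adjustment, 25 members were higher and 20 lower at p under 0.05, shares of 24.0% and 19.2%, against 24.4% and 22.3% of all genes. Without replicate 4, limma called 40 members higher (38.5%) and 22 lower (21.2%), against 29.6% and 26.4% of all genes. The median log2 difference in that fit was 0.08 over the members and 0.07 over all genes. The split of calls without replicate 4 moved with the scaling, and that of all genes moved too. With arrays centred on their medians, 32 members were higher and 31 lower, against 4455 and 5785 of all 18166 genes. Quantile normalization again gave 38 and 21 members, against 4723 and 5384 of all genes. Ribosomal protein centring (each array set to the mean of its ribosomal protein genes) gave 7 and 72 members (6.73% and 69.2%), against 12.1% and 70.8% of all genes. It took the median of all genes to −0.68 and that of the members to −0.67. For 1 member, Atp5mk, all under-developed values were above all normal obese ones (7.44% of all genes), and for 16 members they were all below (10.4% of all genes).

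By single array, 16 members were at least 2-fold above the normal obese mean in under-developed replicate 1 and 10 at least 2-fold below it (15.5% and 15.6% of all genes). Replicate 2 had 5 and 0 such members (7.56% and 6.18%) and replicate 3 had 20 and 12 (19.2% and 16.8%). For replicate 4 both counts were 0 (0.0385% and 0.0055%). The shares of members past this fold were 15.4% higher and 9.62% lower for replicate 1, 4.81% and 0% for replicate 2, and 19.2% higher and 11.5% lower for replicate 3, none of them above the share of all genes by more than the rounding.

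**Figure D3:**
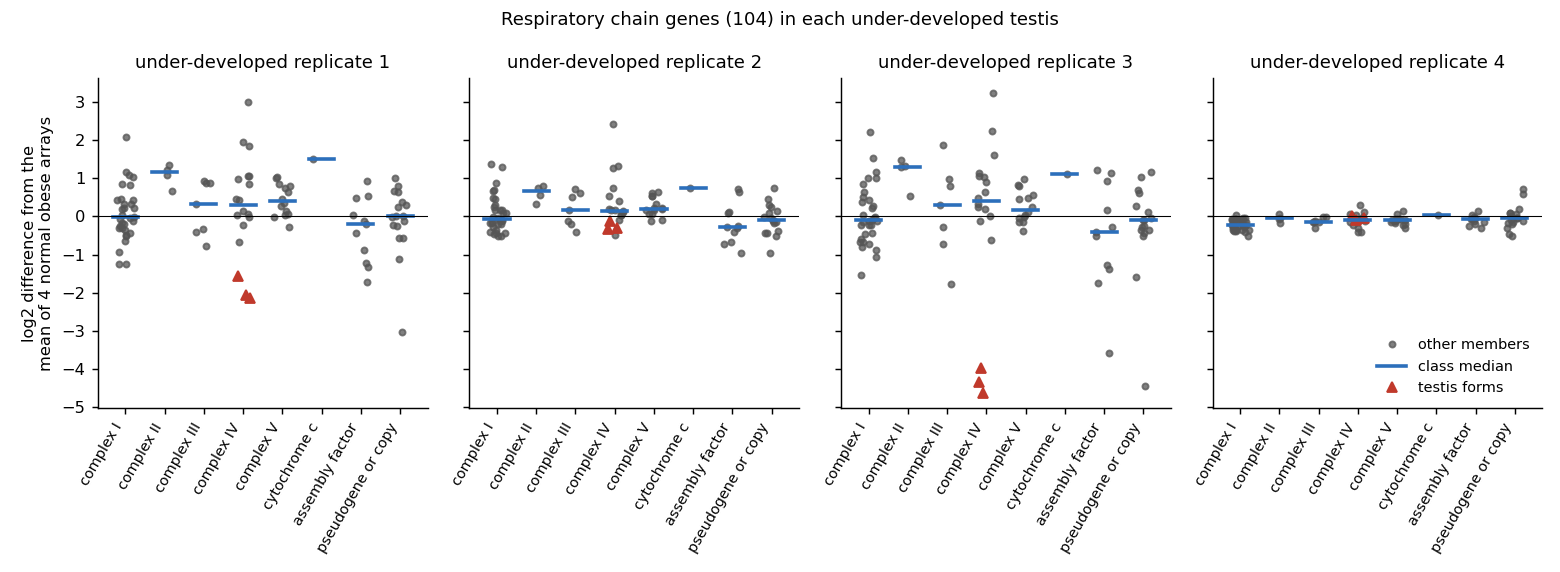
Log2 difference of each of the 104 members from the normal obese mean (vertical axis), by class (horizontal axis), in a panel for each under-developed array; blue lines are class medians and red triangles the 3 testis forms of complex IV. Complex II lies above 0 in replicates 1 to 3 with medians of 1.16, 0.66 and 1.30, complex I spreads to both sides, and the values of replicate 4 stay near 0.

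Complex I oxidises NADH and pumps protons. Without replicate 4, limma called 10 of its 32 members higher (31.2%) and 9 lower (28.1%), close to the 29.6% and 26.4% of all genes, with a median log2 difference of −0.07. Under ribosomal protein centring 2 were called higher and 26 lower (6.25% and 81.2%), against 12.1% and 70.8% of all genes. Ndufb11, an X-linked membrane arm subunit, was at 9.95, 9.23, 10.08 and 7.63 in under-developed replicates 1 to 4, against 7.86, 7.99, 7.74 and 7.85 in normal obese and 7.67 and 7.64 in lean testes. Ndufa1, also X-linked, was at 7.84, 7.96, 8.21 and 6.50 in under-developed testes, against 6.61, 6.52, 6.82 and 6.72 in normal obese and 6.64 and 6.72 in lean testes. For Ndufb3, a small membrane arm subunit, the levels were 9.75, 9.79, 10.09 and 8.62 in under-developed testes, against 8.86, 9.10, 8.75 and 8.95 in normal obese and 8.68 and 8.64 in lean testes. Each was above all 6 normal arrays in replicates 1 to 3, and below all normal obese arrays in replicate 4. Without replicate 4 their differences were 1.89 ± 0.19, 1.33 ± 0.12 and 0.96 ± 0.12 log2 (SE; limma adjusted p = 0.00012, 8.47e-05 and 0.000323). Ndufs5 (0.93 ± 0.11), Ndufs4 (0.90 ± 0.11) and Ndufc2 (0.72 ± 0.12) followed in size.

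The complex I subunits called lower were Ndufs6, Ndufa12, Ndufv3, Ndufb5, Ndufb6, Ndufv2, Ndufs1, Ndufa9 and Ndufb8, from both the matrix arm and the membrane arm, as were those called higher. Ndufs6, a zinc-binding subunit, was at 7.74, 8.53, 7.93 and 8.59 in under-developed testes, against 9.15, 8.87, 8.97 and 8.97 in normal obese and 8.91 and 8.93 in lean testes. Ndufv3, an accessory subunit of the NADH-binding module, was at 7.08, 7.82, 7.67 and 8.02 in under-developed testes, against 8.38, 8.62, 8.08 and 8.25 in normal obese and 8.05 and 8.13 in lean testes. These 2 genes were lower in every under-developed array than in any normal obese array, replicate 4 included. Ndufa12, an accessory subunit, was at 10.45, 11.34, 9.84 and 11.14 in under-developed testes, against 11.29, 11.39, 11.47 and 11.40 in normal obese and 11.27 and 11.37 in lean testes, so replicate 2 lay within the normal obese range. Without replicate 4, limma gave −0.92 ± 0.18 log2 for Ndufs6 (adjusted p = 0.00232), −0.81 ± 0.20 for Ndufv3 (adjusted p = 0.00693) and −0.84 ± 0.29 for Ndufa12 (adjusted p = 0.0339). The core iron-sulphur subunits Ndufs1 (−0.48, adjusted p = 0.00416) and Ndufv2 (−0.51, adjusted p = 0.0261) were called lower by limma too, while the flavoprotein Ndufv1, at −0.04 (limma adjusted p = 0.748), was not called.

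Complex II, which oxidises succinate and is also an enzyme of the tricarboxylic acid cycle, had all 4 of its genes called higher without replicate 4 (29.6% of all genes), with a median log2 difference of 1.07 against 0.07 over all genes. Sdha, the flavoprotein, was at 10.78, 10.43, 11.16 and 9.75 in under-developed replicates 1 to 4, against 9.76, 9.67, 9.66 and 9.62 in normal obese and 9.49 and 9.55 in lean testes. Sdhb, the iron-sulphur subunit, was at 10.39, 9.85, 10.37 and 8.88 in under-developed testes, against 9.07, 9.06, 9.06 and 9.02 in normal obese and 8.98 and 8.95 in lean testes. The membrane anchor Sdhc stood at 10.22, 9.57, 10.29 and 8.92 in under-developed testes, against 9.11, 9.08, 8.83 and 8.98 in normal obese and 8.83 and 8.84 in lean testes. The other anchor, Sdhd, was the least changed, at 9.44, 9.09, 9.32 and 8.75 in under-developed testes, against 8.68, 8.83, 8.69 and 8.90 in normal obese and 8.67 and 8.75 in lean testes. For all 4 genes replicates 1 to 3 were above every normal array, and replicate 4 was within the normal obese range for Sdha, Sdhc and Sdhd and below it for Sdhb. Without replicate 4 the differences were 1.11 ± 0.16 for Sdha, 1.15 ± 0.14 for Sdhb, 1.03 ± 0.18 for Sdhc and 0.51 ± 0.12 for Sdhd (SE; limma adjusted p = 0.000535, 0.000239, 0.00126 and 0.00496). Under ribosomal protein centring 2 of them were called higher and 1 lower (50% and 25%), against 12.1% and 70.8% of all genes. The median was then 0.32, where that of all genes was −0.68.

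In complex III, which passes electrons to cytochrome c, 4 of 7 members were called higher (57.1%) and 2 lower (28.6%) without replicate 4, against 29.6% and 26.4% of all genes. Under ribosomal protein centring 0 were called higher and 4 lower (0% and 57.1%), against 12.1% and 70.8% of all genes, with a median of −0.49. The Rieske iron-sulphur protein Uqcrfs1, which carries electrons within the complex, was at 8.68, 9.06, 7.69 and 9.31 in under-developed testes, against 9.45, 9.49, 9.42 and 9.48 in normal obese and 9.29 and 9.61 in lean testes. Uqcr11, a small accessory subunit, was at 9.98, 10.29, 9.67 and 10.25 in under-developed testes, against 10.47, 10.38, 10.30 and 10.43 in normal obese and 10.47 and 10.39 in lean testes. Both were lower in all under-developed than in all normal obese arrays. On the higher side were the small subunit Uqcrq, at 9.53, 9.17, 9.64 and 8.50 in under-developed testes against 8.58, 8.64, 8.77 and 8.61 in normal obese and 8.49 and 8.56 in lean testes, and the hinge protein Uqcrh, at 11.11, 10.85, 11.04 and 9.93 in under-developed testes against 10.23, 10.25, 10.27 and 10.19 in normal obese and 10.12 and 10.12 in lean testes. Uqcrb was dim, at 5.08, 4.86, 6.004 and 4.12 in under-developed testes, against 4.07, 4.39, 3.97 and 4.14 in normal obese and 4.56 and 3.86 in lean testes. Without replicate 4 the differences were −0.98 ± 0.28 for Uqcrfs1, −0.42 ± 0.14 for Uqcr11, 0.80 ± 0.12 for Uqcrq, 0.77 ± 0.10 for Uqcrh and 1.17 ± 0.28 for Uqcrb (SE; limma adjusted p = 0.0147, 0.0337, 0.000835, 0.000273 and 0.00683). The core subunit Uqcrc1, at 9.13, 9.24, 9.17 and 9.34 in under-developed testes against 9.38, 9.59, 9.33 and 9.49 in normal obese and 9.33 and 9.52 in lean testes, missed the threshold (−0.27 ± 0.10, limma adjusted p = 0.051).

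**Figure D4:**
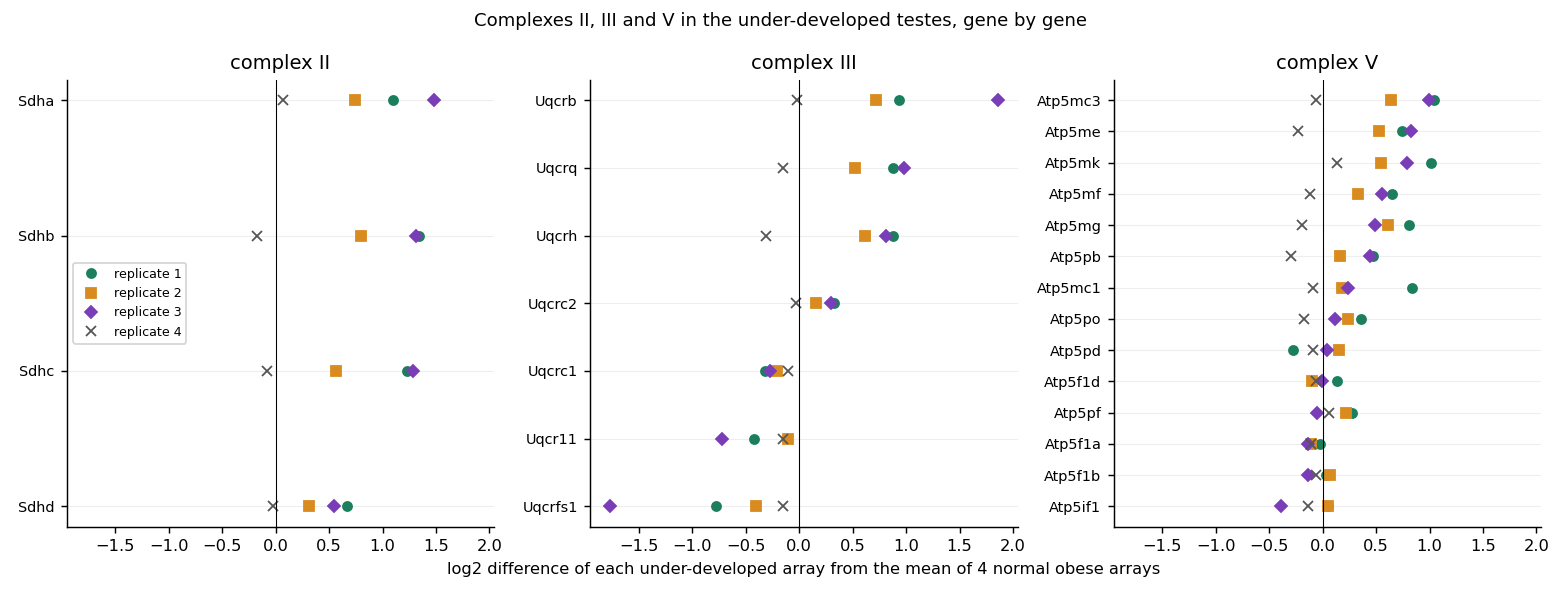
Log2 difference of each complex II, III and V gene (rows) from the normal obese mean (4 arrays; horizontal axis) in under-developed replicates 1 to 4 (symbols). The 4 complex II genes lie right of 0 in replicates 1 to 3, Uqcrfs1 lies left of it, and Atp5f1a, Atp5f1b and Atp5f1d lie near it. With ribosomal protein centring without replicate 4, 9 complex V genes were called lower and 0 higher (64.3% and 0%), against 70.8% and 12.1% of all genes.

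Complex IV, cytochrome c oxidase, held the testis forms, and apart from them 8 of its 15 members were called higher (53.3%) and 1 lower (6.67%) without replicate 4, against 29.6% and 26.4% of all genes, with a median log2 difference of 0.44. With ribosomal protein centring these counts were 3 and 8 (20% and 53.3%), against 12.1% and 70.8% of all genes. Ndufa4, first described in complex I and now placed in complex IV, was at 11.27, 10.64, 10.92 and 9.24 in under-developed testes, against 9.35, 9.40, 9.30 and 9.19 in normal obese and 9.22 and 9.13 in lean testes, 3.10-fold higher without replicate 4 (1.63 ± 0.15 log2, limma adjusted p = 8.47e-05). Its relative Ndufa4l2, a gene known to respond to low oxygen, was the member called lower, at 6.94, 7.11, 6.99 and 7.38 in under-developed testes, against 7.58, 7.65, 7.52 and 7.69 in normal obese and 7.19 and 7.66 in lean testes (−0.59 ± 0.13, limma adjusted p = 0.0037). Lean replicate 1 lay within the range of the under-developed arrays for that gene.

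Among the other tissue forms of complex IV, the widely expressed ones were called higher. Cox4i1 was at 11.23, 11.20, 11.28 and 10.50 in under-developed testes, against 10.74, 10.79, 10.85 and 10.80 in normal obese and 10.53 and 10.79 in lean testes. Cox6a1 was at 11.54, 11.23, 11.52 and 10.35 in under-developed testes, against 10.56, 10.51, 10.36 and 10.52 in normal obese and 10.50 and 10.37 in lean testes. Cox7a2l, which helps join complexes III and IV into supercomplexes, was at 10.40, 9.94, 10.31 and 9.30 in under-developed testes, against 9.52, 9.44, 9.34 and 9.35 in normal obese and 9.27 and 9.33 in lean testes. In each of these genes replicates 1 to 3 were above all 6 normal arrays and replicate 4 was below all 4 normal obese arrays. Without replicate 4 the differences were 0.44 ± 0.10 for Cox4i1, 0.94 ± 0.11 for Cox6a1 and 0.80 ± 0.13 for Cox7a2l (SE, limma adjusted p = 0.00403, 0.000216 and 0.000829). Under ribosomal protein centring Cox4i1 was instead called lower, at −0.31 (limma adjusted p = 0.0286), as were 70.8% of all genes. Cox7a1 and Cox7a2 were not measured by a probe set of their own.

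The forms known from muscle or lung were dim. Cox8b, known from heart and skeletal muscle, was at 6.17, 5.27, 6.27 and 5.43 in under-developed testes, against 4.95, 5.08, 5.17 and 5.28 in normal obese and 5.34 and 5.16 in lean testes, and was called higher without replicate 4 (0.78 ± 0.23 log2, limma adjusted p = 0.0172), with replicates 1 and 3 above the others. Cox6a2, also a muscle form, was at 6.55, 6.69, 6.77 and 6.63 in under-developed testes, against 6.65, 6.44, 6.44 and 6.54 in normal obese and 6.50 and 6.49 in lean testes. Cox4i2, known from lung and from responses to low oxygen, was at 6.31, 6.49, 6.97 and 6.35 in under-developed testes, against 6.43, 6.39, 6.06 and 6.42 in normal obese and 6.42 and 6.38 in lean testes. Neither Cox6a2 (0.15 ± 0.10) nor Cox4i2 (0.27 ± 0.17) passed (limma adjusted p = 0.237 and 0.216). Under ribosomal protein centring both were called lower, at −0.60 and −0.48 (limma adjusted p = 0.00269 and 0.0273), as were 70.8% of all genes. Cox5a, Cox5b, Cox6c and Cox7c had differences between −0.07 and 0.27 and were not called.

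In complex V, which makes ATP, 6 of 14 members were called higher (42.9%) and 0 lower without replicate 4, with a median of 0.30. The shares of all genes were 29.6% and 26.4%. Under ribosomal protein centring 0 were called higher and 9 lower (0% and 64.3%), against 12.1% and 70.8% of all genes, with a median of −0.45. Atp5mc3, which encodes the c subunit of the proton-driven ring, was at 9.94, 9.54, 9.89 and 8.84 in under-developed testes, against 8.80, 9.01, 8.89 and 8.90 in normal obese and 8.65 and 8.73 in lean testes. Atp5mk, a small membrane subunit, was at 12.31, 11.83, 12.08 and 11.42 in under-developed testes, against 11.36, 11.28, 11.23 and 11.29 in normal obese and 11.23 and 11.18 in lean testes, and was the member whose under-developed arrays were all above the normal ones. Atp5me, a subunit at the base of the membrane part, was at 9.37, 9.15, 9.45 and 8.40 in under-developed testes, against 8.67, 8.56, 8.66 and 8.62 in normal obese and 8.37 and 8.54 in lean testes. Their differences without replicate 4 were 0.89 ± 0.12, 0.78 ± 0.12 and 0.70 ± 0.10 log2 (SE; limma adjusted p = 0.000397, 0.00073 and 0.000662), and that of Atp5me turned to −0.05 under ribosomal protein centring. Atp5mg, Atp5mf and Atp5pb were the others called higher, at 0.64, 0.51 and 0.36.

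The lowest fitted differences of complex V, over all arrays, were those of Atp5f1a, Atp5if1 and Atp5pd. The alpha subunit Atp5f1a was at 11.62, 11.53, 11.501 and 11.53 in under-developed testes, against 11.55, 11.65, 11.69 and 11.68 in normal obese and 11.49 and 11.61 in lean testes. The inhibitor protein Atp5if1, which blocks ATP hydrolysis when the proton gradient is lost, was at 10.63, 10.63, 10.19 and 10.45 in under-developed testes, against 10.55, 10.61, 10.58 and 10.57 in normal obese and 10.44 and 10.60 in lean testes. The stalk subunit Atp5pd was at 6.79, 7.23, 7.11 and 6.98 in under-developed testes, against 7.01, 7.22, 6.82 and 7.24 in normal obese and 6.78 and 7.04 in lean testes. Without replicate 4 their differences of −0.09 ± 0.09, −0.10 ± 0.13 and −0.03 ± 0.15 log2 did not pass (SE; limma adjusted p = 0.429, 0.557 and 0.895). The catalytic subunit Atp5f1b and the central stalk subunit Atp5f1d had differences of −0.01 ± 0.10 and 0.01 ± 0.09.

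The assembly factors, which are not part of the finished complexes, numbered 11. Without replicate 4, limma called 3 of them higher (27.3%) and 5 lower (45.5%), against 29.6% and 26.4% of all genes, with a median log2 difference of −0.29. Under ribosomal protein centring 0 were called higher and 8 lower (72.7%, against 70.8% of all genes). Ndufaf3, an early complex I assembly factor, was at 10.02, 11.46, 8.15 and 11.54 in under-developed replicates 1 to 4, against 11.76, 11.73, 11.71 and 11.76 in normal obese and 11.64 and 11.71 in lean testes. Ndufaf7, a methyltransferase that acts on a complex I subunit, was at 7.78, 8.05, 7.27 and 9.003 in under-developed testes, against 9.04, 9.05, 8.91 and 9.03 in normal obese and 8.92 and 8.95 in lean testes. Ndufaf2, a late assembly factor related to Ndufa12, was at 5.89, 6.55, 5.84 and 6.96 in under-developed testes, against 7.15, 7.25, 7.24 and 7.23 in normal obese and 7.23 and 7.16 in lean testes. Ndufaf3 and Ndufaf2 were lower in all under-developed than in all normal obese arrays, while replicate 4 lay within the normal range for Ndufaf7. Their differences without replicate 4 were −1.86 ± 0.61, −1.31 ± 0.17 and −1.12 ± 0.17 (SE; limma adjusted p = 0.0289, 0.000318 and 0.000662). Ndufaf5 (−0.96) and Ndufaf1 (−0.29) were the others called lower.

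Assembly factors on the higher side were Sdhaf1, Ndufaf4 and Ndufaf6. Sdhaf1, which helps iron-sulphur clusters enter Sdhb, was at 8.22, 7.995, 8.49 and 6.98 in under-developed testes, against 7.21, 7.40, 7.21 and 7.30 in normal obese and 7.13 and 7.12 in lean testes. Ndufaf4 was at 5.81, 5.90, 6.42 and 5.41 in under-developed testes, against 5.13, 5.27, 5.51 and 5.15 in normal obese and 5.32 and 5.39 in lean testes, and Ndufaf6 at 7.05, 6.68, 7.503 and 6.42 in under-developed testes, against 6.47, 6.60, 6.67 and 6.53 in normal obese and 6.47 and 6.68 in lean testes. Without replicate 4 the differences were 0.95 ± 0.13, 0.78 ± 0.16 and 0.51 ± 0.18 log2 (SE; limma adjusted p = 0.000383, 0.00355 and 0.0382), the last of which turned to −0.24 under ribosomal protein centring.

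Among the 17 pseudogenes and copies, 4 were called higher (23.5%) and 3 lower (17.6%) without replicate 4, against 29.6% and 26.4% of all genes. Under ribosomal protein centring the counts were 0 and 13 (0% and 76.5%), against 12.1% and 70.8% of all genes. Probes of near-identical copies can pick up RNA of the parent gene, so each of these values is uncertain. The widest contrast was between Ndufb11 on the X chromosome and Ndufb11b, a second locus of that name on chromosome 7. Ndufb11b was at 7.19, 9.25, 5.78 and 10.02 in under-developed replicates 1 to 4, against 10.29, 10.17, 10.19 and 10.23 in normal obese and 10.18 and 10.18 in lean testes, 7.04-fold lower without replicate 4 (−2.81 ± 0.65 log2, limma adjusted p = 0.00546). All its under-developed values were below all normal ones. The log2 ratio of Ndufb11b to Ndufb11, again with a normal obese mean of 0, was −5.12, −2.34, −6.66 and 0.04 in under-developed testes, against −0.18 to 0.09 in normal obese and 0.15 and 0.18 in lean testes. This pair was picked after its values were seen, so it was given no test.

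The other copies moved less. Ndufs6-ps1 fell as Ndufs6 did, at 8.76, 9.36, 8.28 and 9.57 in under-developed testes, against 9.65, 9.90, 10.06 and 9.91 in normal obese and 9.61 and 9.77 in lean testes (−1.08 ± 0.23 log2 without replicate 4, limma adjusted p = 0.0037). Ndufa13-ps1 was called lower at −0.50, and Atp5hl1, Atp5mgl3, Atp5mc1l1 and Atp5mgl4 were called higher at 0.87, 0.65, 0.58 and 0.58. Of the 4 members that RefSeq places on the X chromosome, Cox7b, Ndufb11 and Ndufa1 were called higher (75%, against 29.6% of all genes). The copy Ndufb4l4 (−0.24, limma adjusted p = 0.211) was not called.

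Among pathway genes outside the members, the table measured 3 of the 13 mitochondrially encoded subunits by a probe set of their own, COX1, COX2 and COX3, which form the catalytic core of complex IV. Their mean, relative to the normal obese arrays, was 0.42, 0.39, 0.36 and −0.001 in under-developed replicates 1 to 4. All were called higher without replicate 4 (29.6% of all genes), COX2 by 0.68 ± 0.09 (SE, limma adjusted p = 0.000379). Under ribosomal protein centring 0 were called higher and 2 lower, against 12.1% and 70.8% of all genes. Of 33 measured genes for other chain parts, carriers and assembly, 12 were called higher and 11 lower (36.4% and 33.3%, against 29.6% and 26.4% of all genes). The counts were 4 and 22 under ribosomal protein centring, against 12.1% and 70.8% of all genes. The ADP/ATP carrier known from the testis, Slc25a31, differed by −2.43, −1.13, −3.53 and −0.18 in under-developed replicates 1 to 4, and its widely expressed relative Slc25a4 by 2.27, 1.68, 2.07 and −0.16. The outer membrane channel Vdac1 differed by 2.34, 1.84, 2.71 and −0.49, and the complex I assembly factor Acad9 by 1.95, 1.24, 1.997 and −0.01. All 4 of these were called without replicate 4 (limma adjusted p = 0.00215, 5.74e-05, 6.75e-05 and 0.000137). The other measured channel genes were called lower, Vdac2 by −0.93 and Vdac3 by −0.33 (limma adjusted p = 0.00393 and 0.0462).

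The tricarboxylic acid cycle and pyruvate dehydrogenase feed the chain with electrons. Of 16 measured genes of this list, 6 were called higher and 7 lower without replicate 4 (37.5% and 43.8%, against 29.6% and 26.4% of all genes). The counts were 4 and 10 under ribosomal protein centring, against 12.1% and 70.8% of all genes. The autosomal testis form of the pyruvate dehydrogenase subunit, Pdha2, was at −2.81, −1.10, −4.41 and −0.07 log2 relative to the normal obese mean in under-developed replicates 1 to 4, and its X-linked form Pdha1 at 2.74, 1.90, 2.60 and −0.30. The isocitrate dehydrogenase subunits Idh3a and Idh3g differed by 1.86, 1.16, 1.66 and 0.08 and by 1.47, 0.84, 1.48 and −0.06. Each of these 4 genes had the same sign in replicates 1 to 3. Limma's adjusted p without replicate 4 was 0.00459 for Pdha2, 9.09e-05 for Pdha1, 0.000121 for Idh3a and 0.000494 for Idh3g. The remaining subunit of that enzyme, Idh3b, was called lower, at −0.12, −0.55, −0.56 and −0.003 in the 4 replicates (−0.41 without replicate 4, limma adjusted p = 0.0217).

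Of 14 measured genes of mitochondrial biogenesis, 2 were called higher and 7 lower (14.3% and 50%, against 29.6% and 26.4% of all genes). The counts were 1 and 11 under ribosomal protein centring, against 12.1% and 70.8% of all genes. The coactivator Ppargc1b differed by −1.83, −1.37, −2.01 and 0.07 log2, the mitochondrial DNA polymerase Polg by −1.45, −0.91, −1.36 and −0.08, and the transcription factor Tfb2m by −0.90, −0.55, −1.83 and 0.05 in under-developed replicates 1 to 4. The packaging protein of mitochondrial DNA, Tfam, went the other way, by 1.69, 0.86, 1.81 and −0.39. All 4 were called without replicate 4 (limma adjusted p = 8.95e-05, 0.000159, 0.00626 and 0.0006). Nrf1 (0.25, limma adjusted p = 0.111) and Gabpa (0.03, 0.883), whose proteins bind the NRF-1 and ETS motifs searched above, were not called.

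The under-developed testes were also set against the normal testes of lean rats, a comparison that shares its under-developed arrays with the one above. With all arrays limma called 0 members (0% of all genes), the smallest adjusted p being 0.154, and before adjustment 22 were higher (21.2%) and 5 lower (4.81%) at p under 0.05, against 17.5% and 14.3% of all genes. Without replicate 4, 36 members were called higher (34.6%) and 13 lower (12.5%), against 25.6% and 23.2% of all genes. Under ribosomal protein centring the balance turned, with 8 higher and 67 lower (7.69% and 64.4%, against 10.1% and 72.0% of all genes). Without that centring, complex I gave 10 higher and 5 lower (31.2% and 15.6%), complex II 4 and 0 (100% and 0%) and complex III 4 and 1 (57.1% and 14.3%). Complex IV gave 6 and 1 (33.3% and 5.56%) and complex V 7 and 0 (50% and 0%), against the same 25.6% and 23.2% of all genes. Cox6b2 was the testis form called lower (−2.28 ± 0.81 log2, limma adjusted p = 0.0437), with Cox8c at −2.25 ± 0.90 (adjusted p = 0.0666) and Cox7b2 at −2.05 ± 1.02 (adjusted p = 0.129). Cox7b (3.09 ± 0.21), Ndufb11 (2.10 ± 0.23), Cox8a (1.95 ± 0.25), Sdha (1.27 ± 0.19) and Cycs (1.18 ± 0.25) were called higher, and Ndufb11b (−2.78 ± 0.77) lower.

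Obese and lean rats were compared in normally developed testes, where differences were small. Limma called 0 of the 104 members (0% of all genes) at an adjusted p under 0.05, every adjusted p being 1, and before adjustment 0 were higher and 0 lower at p under 0.05 (0.121% and 0.319% of all genes). The testis forms differed little, with fitted values of −0.15 for Cox6b2, 0.05 for Cox7b2 and 0.02 for Cox8c (log2, obese minus lean). All obese values were above both lean ones for 24 members (23.1%) and below them for 1 (0.962%), against 7.7% and 7.27% of all genes. Obese minus lean, 77 of the 104 differences were positive (74.0%), against 52.0% of all genes, with a median of 0.07 log2 against 0.005 over all genes. Without lean replicate 1, 69 were positive (66.3%, against 50.8% of all genes), with a median of 0.034 against 0.003. Without lean replicate 2 there were 83 (79.8%, against 50.7%), with a median of 0.103 against 0.003. With the replicate number as a block there were 83 (79.8%, against 50.5%), with a median of 0.116 against 0.002. Under ribosomal protein centring 36 were positive (34.6%, against 18.5% of all genes). Most of complex V (13 of 14) and complex I (26 of 32) had positive differences, and the pseudogenes and copies did not (6 of 17).

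The median difference between obese and lean testes moved with the scaling, and that of all genes moved with it. With each scaling below, as without it, the median of the members lay above that of all genes. The median over the members was 0.13 after median centring, with all genes at 0.06, and −0.03 under ribosomal protein centring, which put all genes at −0.10. The member with the smallest p was the complex I subunit Ndufa2, at 7.45, 7.36, 7.67 and 7.19 in normal obese testes, against 7.004 and 7.08 in lean testes (0.37 ± 0.17 log2, SE, limma adjusted p = 1). Ndufb8, Ndufb10, Ndufs8 and Ndufa4l2 followed, at 0.24, 0.19, 0.21 and 0.19. On the lower side were Cox6b1 at −0.37 ± 0.31, Atp5hl1 at −0.34, Atp5mgl1 at −0.31, Ndufb4l1 at −0.28 and Uqcr11l1 at −0.23. None of them passed, and the number of lean arrays limits what could be seen.

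**Figure D5:**
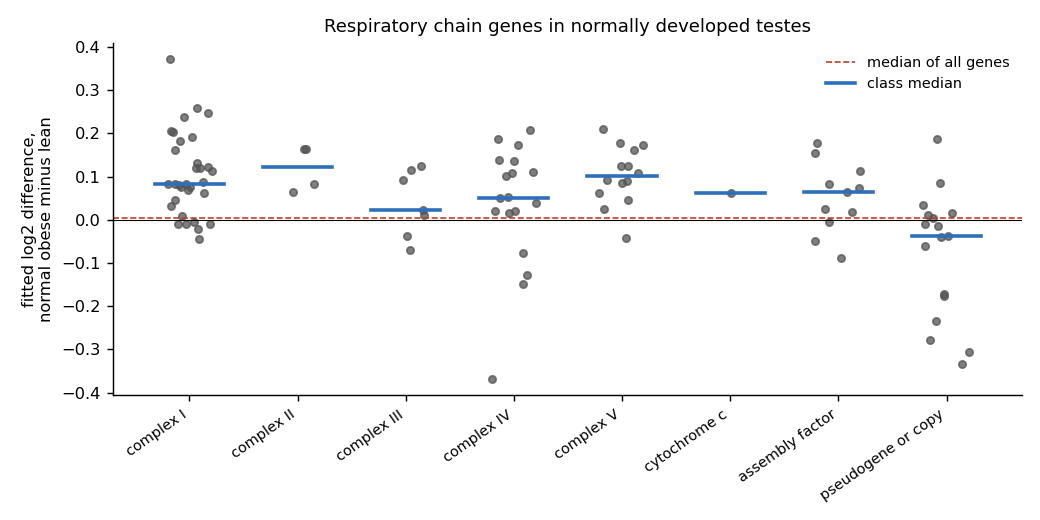
Fitted log2 difference, normal obese minus lean testes (vertical axis), of each of the 104 members (points), by class (horizontal axis), with class medians (blue lines) and the median of all genes (dashed red line). Points of complexes I and V lie mostly above 0, with 26 of 32 and 13 of 14 positive (52.0% of all genes), and no gene passed the test. With ribosomal protein centring the median of the members was −0.03 and that of all genes −0.10.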

How the data were processed

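Per the labels' protocols, total RNA of 10 rat testes was extracted with Trizol, labelled with biotin by the Affymetrix WT PLUS kit and hybridised to Affymetrix rat arrays. The values deposited by the authors are log2 expression values per probe set, made with RMA (background correction, normalization between arrays, summary of probes) per the submitters' processing notes; its settings and the genome build are not given in the sources used here. Values ran from 2.28 to 14.0, with array medians from 6.14 to 6.38. Such normalization takes most genes as alike, so a change in tissue make-up shifts genes against each other.

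Of 36685 probe sets, 18511 carried 1 symbol, 575 several and 17599 were unnamed here; 18394 of the first were matched to RefSeq (GRCr8) by gene number. The brightest probe set per gene (291 genes had several) gave 18166 genes. Among the probe sets with several symbols, 9 held a symbol of the rule and were not used. Groups came from sample titles. The model, fitted by limma 3.58.1 (R 4.3.3, lmFit, eBayes) to all 10 arrays at once, had a mean per group. Benjamini-Hochberg adjustment was over all genes, with a threshold of 0.05. The fit was checked on simulated data in which every group had the spread of the normal obese arrays. That check does not cover the wider spread of the under-developed arrays. The pair ratios had an exact permutation test (scipy 1.17.1). Python 3.11.15, numpy 2.4.6, pandas 2.3.3 and matplotlib 3.10.9 made summaries and plots. The number of arrays limits the precision.

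The members, gene lists and motifs were chosen with earlier results of these data known, so lists got no test and are read beside all genes. Values per array are given for the testis forms, their counterparts, the other tissue forms of complex IV and, per class, the 3 largest positive and the 3 largest negative differences over all arrays; between obese and lean testes the 5 members with the smallest p in each direction are named; up to 4 genes are named per further list. Ndufb11b, Sdhd, Ndufa4l2, Ndufs6-ps1, Vdac2, Vdac3, Idh3b and members named with a single value fall outside this rule and were chosen after their values were seen. Alternatives were 3 scalings (array medians, quantiles, ribosomal protein genes), an offset of 50 before log2, a filter at the 25th percentile of level, averaged probe sets per gene, trended robust moderation, array weights, the 2 compared groups alone, the replicate number as a block, and each array left out in turn.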

Additional observations from a re-analysis of the deposited data

Results flagged for a closer look

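In groups of 4 arrays, an array was noted where its gap to the nearest other array exceeded Dixon's 95% critical value, which chance passes in about 1 of 20 groups. Of 82 groups looked at (the under-developed and the normal obese arrays of each gene of the naming rule), 4 were noted. Cox4i1 in under-developed replicate 4 stood at 10.5 log2, and the other under-developed arrays lay between 11.20 and 11.28. Cox4i2 in normal obese replicate 3 was 6.06, with the other normal obese arrays between 6.39 and 6.43. Sdhb in normal obese replicate 4 was 9.02, with the others between 9.06 and 9.07. Ndufaf7 in normal obese replicate 3 was 8.913, with the others between 9.03 and 9.05.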

How the results depend on the processing

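For under-developed against normal obese testes the count of members called was 0 under each alternative with all arrays except array weights, with 61, and between 0 and 62 when each array was left out, with 62 only without under-developed replicate 4. Alternatives added after seeing the data, all without that replicate, gave 63 with median centring, 59 with quantile normalization, 79 with ribosomal protein centring and 64 with the offset. Against lean testes the counts were 58 with array weights, 0 to 49 with each array left out, and, without replicate 4, 49, 48, 75 and 49 in the same order. Without replicate 4, 29.6% of all genes were called higher and 26.4% lower against normal obese testes, and 25.6% and 23.2% against lean testes. Under ribosomal protein centring these shares were 12.1% and 70.8%, and 10.1% and 72.0%. Counts without such a share, as with array weights, are not read as a result about the members. Between obese and lean normal testes the count stayed at 0 in every alternative run. The median log2 difference of the members against normal obese testes (0.052) went to −0.07 with median centring and −0.475 with ribosomal protein centring, and without replicate 4 to −0.06 and −0.67. Against lean testes (0.082) it was 0.016 with median centring, −0.547 with ribosomal protein centring, 0.119 with array weights, 0.106 with the replicate block, between 0.026 (without lean replicate 1) and 0.127 (without lean replicate 2) with each array left out, and, without replicate 4, 0.042 with median centring, 0.119 with quantile normalization, −0.726 with ribosomal protein centring and 0.099 with the offset. The median between obese and lean normal testes (0.072) was −0.03 under ribosomal protein centring, with or without replicate 4, 0.127 with median centring, 0.116 with the replicate block, 0.034 without lean replicate 1 and 0.103 without lean replicate 2. That centring shifts all genes by construction.

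Of 41 genes of the naming rule, 7 changed sign with ribosomal protein centring of all arrays, Cox6b1 to −0.022, Cox4i1 to −0.27, Cox4i2 to −0.321, Cox6a2 to −0.385, Uqcrh to −0.029, Atp5me to −0.063 and Ndufaf6 to −0.186. Without replicate 4 this centring took Cox6b1 to −0.092, Cox4i1 to −0.305, Cox4i2 to −0.48, Cox6a2 to −0.595, Atp5me to −0.05 and Ndufaf6 to −0.239. Of these, limma then called Cox4i1, Cox4i2 and Cox6a2 lower, as it called 70.8% of all genes. Quantile normalization took Atp5if1 to 0.005 and, without replicate 4, Atp5if1 to 0.043 and Atp5f1a to 0.006. Atp5pd ran from −0.126 to 0.036 with each array left out, with 0.036 without under-developed replicate 1, 0.005 without normal obese replicate 2 and 0.011 without normal obese replicate 4. The ratio of Cox6b2 to Cox6b1 was −2.02 with the mean of probe sets, with an exact permutation p of 0.0286. With each array left out the ratios ranged from −2.78 to −1.13 (Cox6b pair), −4.99 to −2.23 (Cox7b pair) and −4.04 to −1.84 (Cox8 pair). The cause of these changes was not tested.

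Deviations of same-numbered under-developed and normal obese arrays from their group means correlated at 0.0771, 0.00692, 0.0237 and 0.26. Arrays of different numbers were not compared in this way, so whether the replicate numbers pair the arrays is not settled. With a replicate block the pair ratios were −2.11, −3.64 and −3.03. An exact sign-flip test over the 4 same-numbered pairs gave p = 0.25, 0.25 and 0.125. The smallest p this test allows is 0.125, so it could not pass the threshold and decides nothing. With the block in limma, 0 members were called in any comparison. Nothing was given on slides or scan times, and dim genes such as Uqcrb have little signal over background.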
